A study of Mus musculus with 6 samples.

Results

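The Dppa genes (developmental pluripotency associated) are a group of mouse genes that share a name and an expression in pluripotent cells more than a protein family, and 4 of them, Dppa2, Dppa3, Dppa4 and Dppa5a, were followed here through a change of culture medium. They were taken by name from the deposited gene tables, where each had 1 row among 12626 genes. RNA came from J1 WT mouse ES cells, a line grown without feeder cells on gelatin, with LIF, the cytokine that sustains self-renewal, in the medium on every day. At D0 the cells were in serum medium with 15% FBS. At D6 and D13 they had spent 6 or 13 days in 2i+vitC, a serum-free medium with 3 µM of the GSK3 inhibitor CT-99021, 1 µM of the MEK inhibitor PD0325901 and 100 µg/mL vitamin C. Each day had 2 biological replicates, 6 samples in all, from a single cell line. The medium and the time in culture changed together, and no sample was kept in serum for 6 or 13 days, so that medium and time cannot be told apart. The comparison of days asks how each Dppa transcript behaved during the conversion to 2i+vitC, a medium known to lower DNA methylation in ES cells.

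As background, Dppa2 and Dppa4 are small nuclear proteins with a SAP domain, a DNA-binding fold, that act together as a pair on chromatin. In ES cells they are known to occupy promoters of developmental genes, to keep DNA methylation away from them and to promote transcription of genes of the two-cell embryo. Dppa3, also called Stella or PGC7, marks primordial germ cells, is supplied to the embryo by the oocyte and binds UHRF1, the cofactor that brings the maintenance methyltransferase DNMT1 to replicating DNA. In ES cells in serum it is known to be expressed in some cells and not in others. Dppa5a, also called Esg1, is an RNA-binding protein with a KH domain, a fold it shares with genes of the oocyte such as Ooep and Khdc3.

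Dppa2 and Dppa4 are neighbours on chromosome 16. In the RefSeq annotation of GRCm38, Dppa4 spans chr16:48283735-48294292 and Dppa2 chr16:48310274-48319513, both on the plus strand, 16.0 kb apart. Dppa3 lies at chr6:122626424-122630271 on the plus strand, 77.2 kb from Nanog, and Dppa5a at chr9:78367052-78368199 on the minus strand. All 4 are protein-coding genes, and their reads come from exons.

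Copies of these genes elsewhere in the genome bear on what a uniquely mapped read can count. Dppa5b and Dppa5c, annotated as pseudogenes on chromosome 9, matched the Dppa5a transcript at 96.3% of 299 aligned bases, and Dppa3-ps on the X chromosome matched Dppa3 at 98.2% of 451. The following stretches of 60 bases, from GENCODE transcripts on GRCm38, are shown because they are where gene and copy can be told apart, with capitals at the bases that differ.
Dppa5a, chr9:78367766-78367825, minus strand: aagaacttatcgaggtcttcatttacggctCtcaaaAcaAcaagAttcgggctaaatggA
Dppa5b, chr9:78245824-78245883, plus strand: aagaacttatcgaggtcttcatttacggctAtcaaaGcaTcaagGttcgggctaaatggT
Dppa5c, chr9:78272272-78272331, plus strand: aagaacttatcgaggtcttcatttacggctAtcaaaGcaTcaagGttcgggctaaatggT
Dppa3, chr6:122628606-122628665, plus strand: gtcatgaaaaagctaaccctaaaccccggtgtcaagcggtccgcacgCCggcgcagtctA
Dppa3-ps, chrX:37625923-37625982, minus strand: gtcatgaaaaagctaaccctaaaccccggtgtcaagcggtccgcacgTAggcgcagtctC
In these stretches the copies differed from Dppa5a at 5 bases and from Dppa3 at 3 bases.

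The copies touched the members unequally. Of the windows of 100 bases along each transcript, 561 of 1849 in Dppa2 (30.3%) also occurred, base for base, in a transcript of another gene, as did 232 of 1380 in Dppa4 (16.8%), 16 of 520 in Dppa5a (3.08%) and 0 of 734 in Dppa3. Every gene that held such a window is annotated as a pseudogene. Dppa5b and Dppa5c have no row in the files, and the others carry names with a capital G, which the names in the files lack, so that they could not be looked up. A read that lies within an identical window may have no unique place in the genome, and the authors kept unique best hits. The reads were paired-end, so that a mate outside the window may still place the pair. The windows were compared with transcripts and not with the whole genome. What this did to the levels was not tested.

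The values are log2 CPM, the log2 of the reads on a gene scaled to a common library size (CPM). Reads on genes numbered 73230745 to 83688345 per sample, and 3 reads were worth 0.0344 to 0.042 CPM. The members were far above that level, with between 953 reads (Dppa2 at D13 replicate 2) and 221497 reads (Dppa5a at D13 replicate 1). The labelled cell type was checked with 7 markers of ES cells, all measured. Their summed level was 3300 to 3440 CPM in serum, 2950 to 3180 CPM at D6 and 2100 to 2710 CPM at D13. From D0 to D13, 4 of the 7 fell on the log2 scale: Lin28a (-4.91), Utf1 (-2.96), Sall4 (-0.71) and Sox2 (-0.69). Nanog (1.37) rose, and Pou5f1 (0.04) and Zfp42 (-0.75) did not pass the limma test described below. Of 5 markers of fibroblasts or feeder cells 3 were measured, and their sum was 10.1 to 29.7 CPM in serum, 4.86 to 5.11 CPM at D6 and 5.5 to 5.62 CPM at D13, with none of the 3 under 1 CPM in every sample. Col1a1 (-1.98) and Col1a2 (-3.86) among them fell on the log2 scale from D0 to D13, and Thy1 (-0.6) did not pass. The serum replicates differed most in Col1a1, with 1461 and 318 reads. Markers of other cell types also moved between serum and D13. Summed markers of primitive endoderm (5 of 7 measured) were 319 to 391 CPM in serum and 315 to 441 CPM by D13, but Col4a1 (-5.33) and Dab2 (-4.66) among them fell on the log2 scale. Those of trophoblast (3 of 5 measured) went from 127 to 130 CPM in serum to 81.2 to 85.4 CPM by D13, where Krt8 (-2.93) fell. Those of neural cells (3 of 4 measured) went from 156 to 209 CPM in serum to 97.8 to 98.4 CPM by D13. Among the neural markers Sox1 (1.86) rose and Tubb3 (-1.77) fell, while Nes (-0.67) did not pass. The 1 of 4 mesoderm markers measured was at 1.53 to 3.28 CPM over all samples. The part of such cells in the results below was not tested. In a bulk sample, fewer cells that express a gene and less RNA per cell cannot be told apart.

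The 4 genes moved in 2 directions. Dppa2 and Dppa4 fell in 2i+vitC, and Dppa3 and Dppa5a were higher at D13 than in serum. Across D0 to D13, Dppa2 fell 8.9-fold and Dppa4 4.83-fold, while Dppa3 rose 7.66-fold and Dppa5a 2.49-fold. All 4 passed the test, which was a moderated limma test with Benjamini-Hochberg adjustment over 12928 genes and transposon families and a threshold of 0.05. In the same comparison 42.1% of all genes and families passed, 20.6% higher and 21.5% lower, so that passing alone did not set the Dppa genes apart. With a change of more than 4-fold also required, 13.3% of all genes and families passed, and Dppa2, Dppa4 and Dppa3 were among them.

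**Figure D1:**
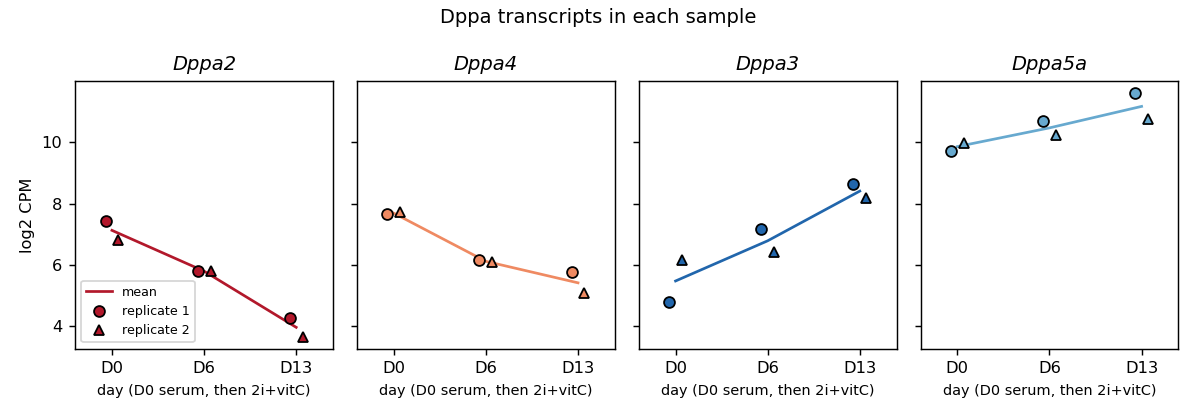
The log2 CPM (vertical axis) of each Dppa gene at D0, D6 and D13 (horizontal axis); circles are replicate 1, triangles replicate 2, and the line joins the means of the 2 replicates. Dppa2 and Dppa4 go down from D0 to D13, Dppa3 and Dppa5a go up, and in each of the 4 genes both D13 samples lie outside the range of the D0 samples.

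Dppa2 went down at each step. Its log2 CPM was 7.44 and 6.81 in the serum replicates, 5.79 and 5.81 in those of D6, and 4.28 and 3.67 in those of D13. No 2 days overlapped. In order of day the means were 7.13 ± 0.44, 5.80 ± 0.01 and 3.97 ± 0.43 (SD, n = 2). Dppa2 changed by -1.33 ± 0.29 (SE) on the log2 scale in the first step, D0 to D6 (limma adjusted p = 0.011), and by -1.83 ± 0.29 in the second, D6 to D13 (limma adjusted p = 0.023). Both calls depended on single samples. The first no longer passed without D0 replicate 1 (-1.01, limma adjusted p = 0.067) or D6 replicate 1 (-1.32, limma adjusted p = 0.054). The second no longer passed without D6 replicate 1 (-1.84, limma adjusted p = 0.062), D6 replicate 2 (-1.82, limma adjusted p = 0.098) or D13 replicate 1 (-2.13, limma adjusted p = 0.10). The fall over the whole course, -3.15 ± 0.29 with a 95% interval of -3.82 to -2.49 (limma adjusted p = 0.0001), passed whichever sample was left out.

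Dppa4, its partner, had its called step between D0 and D6. Its log2 CPM was 7.66 and 7.72 in serum, 6.16 and 6.09 on D6, and 5.76 and 5.08 on D13, again without overlap between days. The day means were 7.69 ± 0.04, 6.12 ± 0.05 and 5.42 ± 0.48 (SD, n = 2). In the first step Dppa4 fell by 1.57 on the log2 scale (SE 0.25, limma adjusted p = 0.0024), and this passed whichever sample was left out. From D6 to D13 the change was -0.71 ± 0.25, which did not pass (limma adjusted p = 0.14). Over D0 to D13 it was -2.27 ± 0.25, with a 95% interval of -2.85 to -1.69 (limma adjusted p = 0.00025).

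Dppa2 and Dppa4 were also read against each other within each sample. The log2 CPM of Dppa2 minus that of Dppa4 was -0.22 and -0.90 in serum, -0.37 and -0.28 on D6, and -1.48 and -1.41 on D13. The D13 samples thus had less Dppa2 per Dppa4 than any sample of D0 or D6, while D0 and D6 overlapped, and the serum replicates differed from each other by more than the nearest serum and D13 samples did. With 2 samples against 2, an exact two-sided permutation test cannot go below 0.333, and none was run, so that a change of the ratio was not tested.

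Dppa3 took the opposite course. Its log2 CPM was 4.80 and 6.15 in serum, 7.16 and 6.41 on D6, and 8.65 and 8.18 on D13. The days did not overlap, although the serum replicates lay far apart, with the largest SD of the 4 members on that day. The means were 5.48 ± 0.96, 6.79 ± 0.53 and 8.41 ± 0.33 (SD, n = 2). With the replicate number added to the model as a block, both steps of Dppa3 passed (limma adjusted p = 0.024 in each). In the fit used here, without a block, neither step passed alone. There Dppa3 changed by 1.31 ± 0.43 on the log2 scale in the first (limma adjusted p = 0.059) and by 1.63 ± 0.43 in the second (limma adjusted p = 0.066). Without D0 replicate 2 the first step was 1.99 and passed (limma adjusted p = 0.012), without D6 replicate 2 it was 1.69 and passed (limma adjusted p = 0.027), and without D0 replicate 1 it was 0.63. The second step passed without either D0 sample (1.63, limma adjusted p = 0.038 and 0.039) and with only the 2 days compared (limma adjusted p = 0.038). Over the whole course Dppa3 rose by 2.94 ± 0.43 on the log2 scale, with a 95% interval of 1.95 to 3.92 (limma adjusted p = 0.00099), and this passed whichever sample was left out. Its size depended on the serum replicates, at 2.26 without D0 replicate 1 and 3.61 without D0 replicate 2.

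Dppa5a was abundant throughout, with the smallest change of the 4 from D0 to D13. Its log2 CPM was 9.73 and 9.99 in serum, 10.71 and 10.23 on D6, and 11.60 and 10.75 on D13, with day means of 9.86 ± 0.18, 10.47 ± 0.34 and 11.17 ± 0.60 (SD, n = 2). Both later days were above serum in each sample. D6 and D13 did not overlap, but D13 replicate 2 barely exceeded D6 replicate 1. Neither step passed, with 0.61 ± 0.34 on the log2 scale in the first (limma adjusted p = 0.23) and 0.70 ± 0.34 in the second (limma adjusted p = 0.24). From D0 to D13 it was 1.31 ± 0.34, with a 95% interval of 0.55 to 2.08 (limma adjusted p = 0.014). That rise did not pass without D0 replicate 1 (1.18, limma adjusted p = 0.065) or without D13 replicate 1 (0.89, limma adjusted p = 0.065).

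By step, 2 of the 4 Dppa genes passed from D0 to D6, both lower, in a comparison where 23.9% of all genes and families passed, 13.7% higher and 10.2% lower. In the second step 1 of 4 passed, Dppa2, against 4.18% of all genes and families, 1.39% higher and 2.78% lower. With more than 4-fold also required, no member passed in either step, against 9.75% of all genes and families in the first and 1.1% in the second. Whether a gene changed more in the first step than in the second was tested as a contrast of its own. None of the 4 passed it in limma, and 0 did at an unadjusted p under 0.05, while 8.87% of all genes and families passed. The first change minus the second was 0.50 ± 0.50 (SE) for Dppa2 (limma adjusted p = 0.66), -0.86 ± 0.44 for Dppa4 (limma adjusted p = 0.31), -0.32 ± 0.75 for Dppa3 (limma adjusted p = 0.88) and -0.09 ± 0.58 for Dppa5a (limma adjusted p = 0.96). The early fall of Dppa4 is therefore not shown to differ from its later change.

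**Figure D2:**
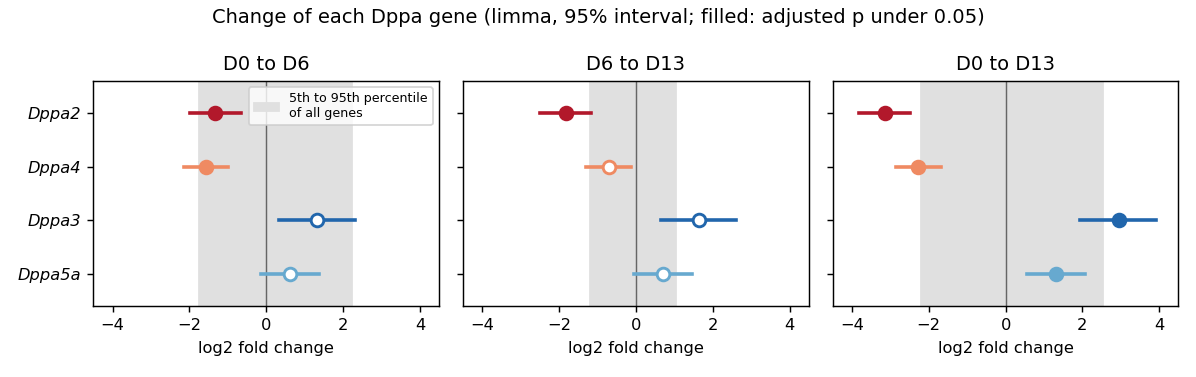
The log2 fold change (horizontal axis) of each Dppa gene between the days named above each panel, with its 95% interval from limma; filled points have an adjusted p under 0.05 and the grey band runs from the 5th to the 95th percentile of all genes. From D0 to D13, where the band runs from -2.20 to 2.53, Dppa2, Dppa4 and Dppa3 lie outside it and Dppa5a lies inside.

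The order of the members changed between serum and the later days. Levels of different genes were compared per kb of exon (CPM per kb, exonic length from GENCODE). Each gene was ranked among the 11236 of 12626 genes whose unique name was matched to a length. Genes whose names had lost a capital G could not be matched, abundant ones included, so that the ranks are not positions among all genes. Dppa5a was the highest member on every day, at 1510 ± 192 CPM per kb (SD, n = 2; rank 11) in serum, 2330 ± 550 (rank 3) on D6 and 3890 ± 1570 (rank 2) on D13. Below it in serum came Dppa4 at 140 ± 3.85 CPM per kb (rank 363). The ranks depended on the length used, and by coding length that of Dppa4 in serum was 599. Dppa2, at 70.9 and 46.0 CPM per kb, and Dppa3, at 31.2 and 79.7 CPM per kb, overlapped at D0 and were not told apart.

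At D6 and D13 Dppa3 stood second. Its level was 128 ± 46.1 CPM per kb at D6 (rank 435, or 675 by coding length) and 387 ± 88.9 at D13 (rank 129, or 203). Dppa4 followed at 47.2 ± 1.66 and then 29.7 ± 9.72 CPM per kb, and Dppa2 last at 22.8 ± 0.173 and then 6.56 ± 1.93 CPM per kb. By D13 the ranks of these 2 were 2420 and 6302. On both days no neighbours in this order overlapped. Between serum and D13 Dppa3 and Dppa4 changed places, since the log2 CPM of Dppa3 minus that of Dppa4 was -2.86 and -1.57 in serum, 1.00 and 0.32 on D6, and 2.89 and 3.10 on D13.

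The members together took 0.136% of gene reads in serum, 0.175% on D6 and 0.277% on D13 (means of 2 replicates), mostly through Dppa5a. That gene alone took 0.095%, 0.150% and 0.237%.

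Dppa1, a gene that carries the family name but was not among the 4, was looked at after its values were seen. It had 2 and 1 reads in serum, 214 and 129 on D6, and 444 and 190 on D13. Against its 3 reads in serum it was 116 times as high at D6 (95% exact interval 39.3 to 564) and 240 times as high at D13 (81.6 to 1160), and these intervals cover counting error only. The 2 later days overlapped. Fitted log2 values of Dppa1 depend on the offset of 0.5 reads and are not given. Every gene row had reads at D6 and D13, so that a gene with reads in serum alone had no row to set beside it.

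The genomic neighbours of the members, taken as the 3 nearest annotated genes on each side, did not all move with them. For the same want of capital G in the deposited names, neighbours such as Gdf3 and Gsta2 could not be looked up. Of the rest, 4 genes other than the members were matched to a row. Morc1, a germ cell gene of transposon silencing 112 kb beyond Dppa2, had a log2 CPM of 6.02 and 6.59 in serum, 8.09 and 8.02 on D6, and 8.49 and 8.03 on D13. It rose by 1.75 on the log2 scale in the first step (limma adjusted p = 0.0016) and by 1.96 from D0 to D13 (limma adjusted p = 0.00058), opposite to Dppa2 and Dppa4. Apobec1, a cytidine deaminase gene 23.4 kb from Dppa3, rose by 1.20 from D0 to D13 (limma adjusted p = 0.0064).

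Near Dppa5a the nearest gene matched to a row, at 8.70 kb, was Ooep, which encodes a KH domain protein of the oocyte. It had 2077 and 2785 reads in serum, 7439 and 6443 on D6, and 12334 and 6779 on D13, a rise of 2.11 on the log2 scale from D0 to D13 (limma adjusted p = 0.0011). Ddx43, an RNA helicase gene 27.6 kb from Dppa5a, changed by -0.24 and did not pass (limma adjusted p = 0.52).

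Genes around the Dppa genes, such as partners, pathway genes, relatives and genes of the same cell states, were grouped in 8 lists. Not all of them are known to act with a Dppa protein. The lists held 76 genes and families in all, of which 55 had a row. Over all lists 27 genes and families passed in the first step (18 higher, 9 lower), 5 in the second (1 higher, 4 lower) and 32 over the whole course (16 higher, 16 lower). Among all genes and families the shares that passed were 23.9%, 4.18% and 42.1%, and for the whole course 20.6% higher and 21.5% lower, against which the counts of each list below are to be read. The median log2 fold change of all genes was -0.01 in each comparison.

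In the DNA methylation machinery, where Dppa3 acts through UHRF1, 1 of 9 genes rose from D0 to D13 and 4 fell, with a median log2 fold change of -0.44. Uhrf1 rose, from a log2 CPM of 8.66 and 8.52 in serum to 9.67 and 9.73 on D6 and 10.25 and 10.22 on D13, a change of 1.65 over the course (limma adjusted p = 0.00054). Uhrf1 and Dppa3 were thus both higher at D13. Dnmt1, the maintenance methyltransferase, changed by 0.41 and did not pass (limma adjusted p = 0.18). The genes that fell were the de novo methyltransferases Dnmt3a (-2.39) and Dnmt3b (-3.70), their cofactor Dnmt3l (-6.32) and the Uhrf1 relative Uhrf2 (-0.71). The TET genes, which encode the enzymes that oxidize methylcytosine, all fell: Tet1 by 1.41, Tet2 by 1.09 and Tet3 by 1.92 on the log2 scale, and Tdg had no row. Without D0 replicate 2, 1 of the 3 passed.

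Of 18 listed two-cell-stage entries, a set that Dppa2 and Dppa4 are known to promote, 7 were measured. Since each gene row had at least 6 reads at D6 and 2 at D13, a listed gene without reads on those days had no row, which limits what the counts can show. From D0 to D13, 4 of these 7 fell and none rose, with a median of -2.04. Those that fell were Zscan4c (-4.30), Zscan4d (-4.75), Zscan4f (-5.41) and the internal part of the retrovirus MERVL, MERVL-int (-2.04). The Zscan4 genes are near-identical copies, so that a read may have no unique place among them, and what this did to their counts was not tested. The 4 also fell in the second step, while in the first step Zscan4c alone passed. Zscan4c went from 330 and 294 reads in serum to 108 and 98 on D6 and 14 and 13 on D13, down at each step. MERVL-int changed by -0.13 in the first step and did not pass (limma adjusted p = 0.85). MT2_Mm, the terminal repeat of MERVL, changed by -0.05 from D0 to D13 (limma adjusted p = 0.93). Sp110 (1.03) and Usp17le (-0.69) did not pass over that course either. The second-step calls of this list went from 4 to 0 in limma without D6 replicate 1, D6 replicate 2 or D13 replicate 1, where 4, 4 and 5 of the 7 had an unadjusted p under 0.05. The first-step call of Zscan4c was lost without D0 replicate 1 or either D6 sample.

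Of 9 listed genes of the subcortical maternal complex of the oocyte and KH domain relatives of Dppa5a, 5 were measured. From D0 to D13, 4 of the 5 rose and none fell, with a median of 2.11. Every gene row had at least 6 reads at D6 and 2 at D13, but as few as 0 at D0. A gene without reads on the later days thus had no row, which limits what the one-sided count can show. Khdc3 rose by 4.40 (limma adjusted p = 8.5e-05), from a log2 CPM of 3.24 and 1.99 at D0 to 7.28 and 6.75 at D13. Khdc1a had 3 and 0 reads in serum, 248 and 135 on D6, and 310 and 381 on D13. Ooep and Tle6 were the others, and Zbed3, at 0.48, did not pass. In limma 3 passed in the first step and 0 in the second, where 0 also had an unadjusted p under 0.05.

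Of 3 measured maternal-effect genes, a class that includes Dppa3, none passed in limma from D0 to D13, and 0 had an unadjusted p under 0.05. In the germ cell list 4 of 10 rose, Dazl (6.67), Kit (3.48), Tex101 (2.24) and Ifitm3 (1.03), and 1 fell, Prdm1 (-1.35), a regulator of germ cell fate; without D13 replicate 1 these were 3 and 0. Naive pluripotency genes included 7 of 13 that rose and none that fell, with a median of 1.02, among them Prdm14 (2.43) and Nanog (1.37). Their rise lay in the first step, where 8 rose, with a median of 1.28. In the second step 0 passed, with a median of -0.45. Nanog (limma adjusted p = 0.0051) and Prdm14 (limma adjusted p = 0.0055) passed the contrast between the 2 steps, which no Dppa member did. General pluripotency genes included 4 of 6 that fell, Lin28a (-4.91), Utf1 (-2.96), Sall4 (-0.71) and Sox2 (-0.69), as Dppa2 and Dppa4 did, while Pou5f1, at 0.04, did not pass (limma adjusted p = 0.92). This list had 2 calls in place of 4 without D0 replicate 2, either D6 sample or D13 replicate 1.

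**Figure D3:**
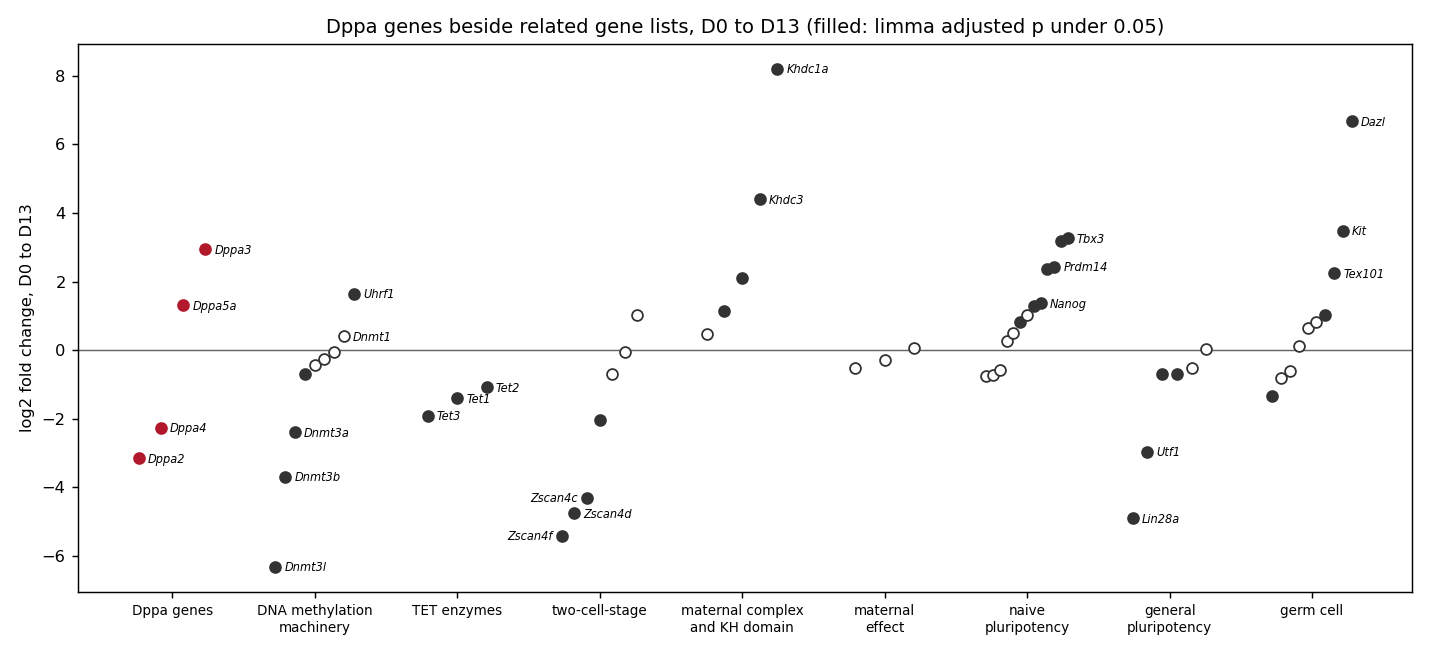
The log2 fold change from D0 to D13 (vertical axis) of the 4 Dppa genes, in red, and of the measured genes and families of each list (horizontal axis), in black; filled points have a limma adjusted p under 0.05. The Dppa genes split, from -3.15 for Dppa2 to 2.94 for Dppa3, while the TET and two-cell-stage calls are all lower and the maternal complex and KH domain calls all higher; Khdc1a, with 3 and 0 reads at D0, is placed by its fitted value, which depends on the offset of 0.5 reads.

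The genes whose course was most like that of a member were found among 11351 genes by the root mean square difference of their log2 CPM over the 6 samples, after each gene's own mean was taken away. The points share the same 6 libraries, and the values are a description without a test. For Dppa2 these were Ecm1 (0.217), Srd5a1 (0.255), Tmem45a (0.265), Muc1 (0.265) and Rtn1 (0.273). For Dppa4 they were Nrcam (0.126), Tmem121 (0.164), Hgh1 (0.168), Ccdc92 (0.186) and Cdr2 (0.186). Dppa4 was not among the 5 of Dppa2, nor Dppa2 among those of Dppa4.

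Dppa3 had Macrod1 (0.166), Creg1 (0.231), Hexa (0.239), Eps8l2 (0.250) and H2-DMb1 (0.256) nearest to it, and Dppa5a had Smim1 (0.103), Atp6v1g1 (0.106), Rabac1 (0.106), Plin2 (0.108) and Haghl (0.108). Macrod1 shared the gap between the serum replicates, at -0.14 and 1.48 log2 CPM. The names depended on the measure: ranked by Pearson's r, 0 of 5 stayed for Dppa2 and Dppa4 and 1 of 5 for Dppa3 and Dppa5a.

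**Figure D4:**
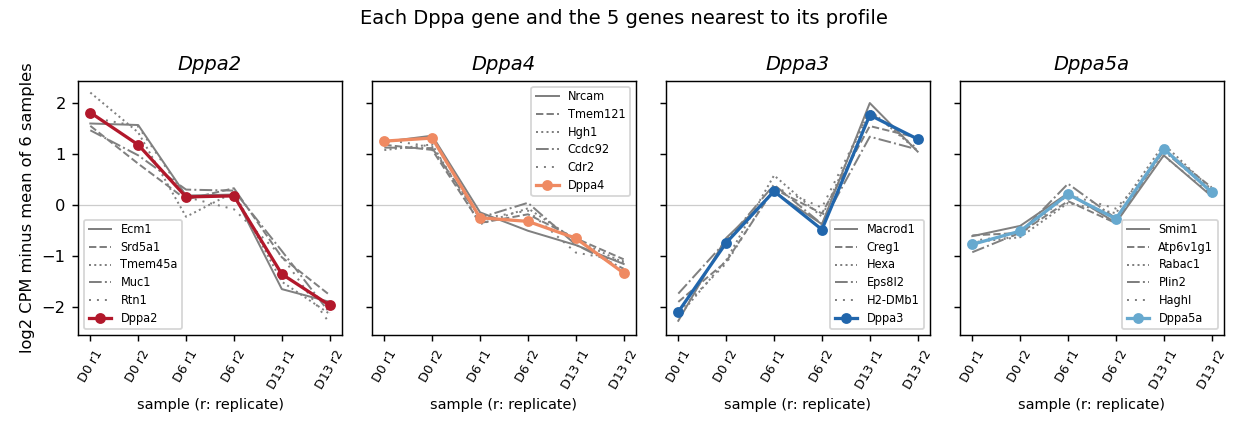
The log2 CPM minus the mean of the 6 samples (vertical axis) in each sample (horizontal axis) for each Dppa gene, in colour, and the 5 genes nearest to its profile, in grey; lines guide the eye. Dppa3 and its neighbours share a low value at D0 replicate 1, and Dppa5a and its neighbours a high value at D13 replicate 1.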

How the data were processed

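Per the labels and the methods, the authors mapped reads with TopHat2 2.0.6 to mm10 with RefSeq genes, counted them with HTSeq 0.6.1, counted transposon families after Bowtie 1.0.0, scaled both tables together by TMM from edgeR and deposited voom log2 CPM with an offset of 0.5 reads. In each sample 100% of the gene values were whole reads within 0.01, so that reads could be read off. At D0 some genes had 0 reads, while every row had at least 6 at D6 and 2 at D13; the rule behind this is not given in the sources used here. Gene names lack every capital G, and names so changed were not restored or matched.

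The log2 values were tested with limma 3.58.1 (R 4.3.3), with a mean per day, a mean-variance trend, all 6 samples and no block; adjustment was by Benjamini-Hochberg over 12928 rows. Tables used Python 3.11.15, numpy 2.4.6, pandas 2.3.3, Biopython 1.88 and matplotlib 3.10.9. The fit was tested on simulated data. Named genes were the members, the list genes, the 3 nearest genes on each side and the 5 nearest profiles; of list genes, values are given for those whose role touches a member. The members and lists were chosen with earlier results of these data known. Promoter and protein sequences were not used here.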

Additional observations from a re-analysis of the deposited data

How the results depend on the processing

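The falls of Dppa2 and Dppa4 and the rise of Dppa3 from D0 to D13 passed under all 14 alternatives tried. Of 216 alternatives to the members' results, 193 kept direction and side of the threshold, 11 lost the call, 7 gained it and 5 changed sign. Some of the 193 could not have come out otherwise, since a step that was not called cannot gain a call when more than 4-fold is also required. With more than 4-fold required, the calls of Dppa2 from D0 to D6 (-1.33) and D6 to D13 (-1.83), Dppa4 from D0 to D6 (-1.57) and Dppa5a from D0 to D13 (1.31) were lost by construction, the members called were 0, 0 and 3, and the listed genes called 14, 3 and 19 in place of 27, 5 and 32. Dppa3 from D6 to D13 (1.63) passed with only the 2 days compared, where 2 members and 8 listed genes were called; the cause was not tested.

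Whether the replicate numbers pair the samples was not settled, and the fit used no pairs. The correlation over genes of replicate 1 minus replicate 2 was -0.13 for D0 with D6, 0.329 for D6 with D13 and 0.137 for D0 with D13. With the replicate block, Dppa3 passed in the first step (1.31, limma adjusted p = 0.024) and in the second (1.63, limma adjusted p = 0.024), and 2 members and 8 listed genes were called from D6 to D13.

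With each sample left out in turn, Dppa2 ranged from -1.64 to -1.01 (D0 to D6) and from -2.13 to -1.52 (D6 to D13), Dppa3 from 0.63 to 1.99 and from 1.25 to 2.00, and Dppa5a from 0.89 to 1.74 (D0 to D13). Members called ranged from 1 to 3 (D0 to D6) and 0 to 2 (D6 to D13), and listed genes from 0 to 8 (D6 to D13). The difference between the 2 steps, not called in any fit, ranged from -1.07 to 0.44 for Dppa3 and from -0.58 to 0.40 for Dppa5a. Its sign changed for Dppa3 without D0 replicate 2 (0.36) or D6 replicate 2 (0.44), and for Dppa5a without D0 replicate 2 (0.04), D6 replicate 2 (0.40) or D13 replicate 1 (0.33). An SD here rests on 2 samples, and depth was not limiting for the members.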
